A study of Mus musculus with 6 samples.

Results

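The membrane-associated guanylate kinase (MAGUK) family was examined through 9 genes, Cask, Dlg1, Dlg3, Dlg4, Dlg5, Mpp1, Mpp5, Mpp6 and Mpp7, which were 9 of 41255 genes listed in the deposited mRNA table. Members were taken by gene symbol. The family was picked by its differences between RPL10 R98S and WT cells, those of Cask and Dlg3 above all, so every R98S to WT value of a member is given as a description, without a p-value. The cells were of the mouse lymphoid line Ba/F3, whose growth depends on interleukin-3. They carried a retroviral human RPL10 cDNA, either WT (clones 28, 29 and 36) or with serine for arginine at residue 98 (R98S, clones 11, 13 and 35), and a short hairpin RNA against the mouse Rpl10 gene in both groups. Each library came from a monoclonal culture grown from a single cell, treated with cycloheximide at 100 μg/ml for 5 min before RNA isolation. A difference between the genotypes is therefore a difference between 3 clones and 3 other clones of 1 parental line, and differences between founder cells cannot be told apart from an effect of the mutation. The labels give each clone as a sample of its own, and each clone was 1 replicate.

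MAGUK proteins are scaffolds. They carry PDZ domains, which grip the carboxyl-terminal tails of membrane proteins, an SH3 domain, and a guanylate kinase domain that has lost its catalytic role and binds other proteins. The DLG group is related to the Drosophila tumour suppressor Discs large and organises cell polarity and synapses. Cask and members of the MPP group (also called PALS) carry L27 domains, through which they join other scaffolds into complexes at the plasma membrane. The family is best known in neurons and epithelia, while in lymphocytes Dlg1 takes part in the immune synapse and T-cell receptor signaling.

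The libraries held 21786776 to 24204991 reads assigned to genes, and 11550 genes whose normalized count averaged at least 10 were tested. A normalized count is the read count of a gene divided by a size factor of its library, so that 3 reads, the floor used here, correspond to 2.78 to 3.22 normalized counts. Of 7 marker genes listed for Ba/F3 cells, 6 had more than 3 reads in some library, among them Csf2rb and Csf2rb2, beta subunits of the interleukin-3 receptor, and Kit was at or under the floor. The sum of this list was 99670 to 119900 normalized counts in WT and 135500 to 161000 in R98S clones, carried by Csf2rb and Csf2rb2. The fit called Csf2rb, Csf2rb2 and Cd79b higher and Ptprc, the CD45 gene, lower in R98S clones (log2 difference -1.33, adjusted p = 0.00894 in limma), and it called neither Il3ra nor Spi1. Mouse Rpl10, the target of the hairpin, lay between 1900 and 3156 in WT and between 1883 and 3028 in R98S clones, and reads of the human cDNA may be among them. No library had more than 7 reads for any of 4 epithelial markers or more than 13 for any of 4 neuronal or 3 fibroblast markers. Summed over 5 T-cell markers, normalized counts were 14.0 to 65.1 in WT and 47.0 to 92.9 in R98S clones, with Cd3e and Cd4 at or under the floor. Cd3d, at a mean of 13.3 and 63.8, was the only tested marker of this list and was called higher (adjusted p = 0.0112 in limma), while Cd3g had 3, 3 and 43 reads in WT clones 28, 29 and 36 and at most 2 reads in R98S clones. Summed over 4 erythroid markers, they were 208.5 to 686.5 and 371.9 to 587.3, with 1 marker at or under the floor. Most of this sum was Klf1, which was not called, while Hba-a1, at a mean of 35.8 and 2.35, was called lower (adjusted p = 0.0389 in limma). Hba-a1 passed the minimum mean of 10 only through its WT level. A part of these cell types in the values below was not tested.

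Cask encodes a MAGUK with an additional kinase-like domain at its amino terminus and links adhesion molecules such as neurexins and syndecans to the membrane skeleton. The gene spans 334 kb on the minus strand of chromosome X (13517080 to 13851367, GRCm38, GENCODE M21). Among WT cells, clone 28 had 809, clone 29 had 944 and clone 36 had 462 normalized counts of Cask. Among R98S cells, clone 11 had 2.81, clone 13 had 2.04 and clone 35 had 4.63. All R98S clones lay far below all WT clones, and each held only 3, 2 and 5 reads. The means were 738 ± 248 for WT and 3.16 ± 1.33 for R98S (SD, n = 3), the latter being 234-fold lower. The counting interval of the 10 reads in the R98S group (95%, exact Poisson) puts this fold between 127 and 487. On the log2(normalized count + 1) scale the difference was -7.46 (SE 0.36), and 5 of 11550 tested genes had a lower value.

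Gpr34, which encodes a G protein-coupled receptor for a lysophospholipid, lies within an intron of Cask on the opposite strand and was its nearest tested gene. WT clones 28, 29 and 36 had 61.4, 133 and 498 normalized counts of it, against 0.94, 1.02 and 13.0 for R98S clones 11, 13 and 35. Its log2 fold change was -5.41 (SE 0.94, limma adjusted p = 0.0109), called under every alternative, and it shares no exon bases with Cask. The WT clone with the lowest Cask level, clone 36, had the highest Gpr34 level. Gpr82, another receptor gene in the same position, had at most 5.37 normalized counts in any clone. On the other side the nearest tested gene, Fundc1, was 3880 kb away (distance between gene centres) and differed by 0.13 on the log2 scale (SE 0.12, adjusted p = 0.476 in limma). Over the 30 tested genes nearest to Cask the median shift was -0.12 on the log2 scale.

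Dlg3 encodes the synapse-associated protein SAP102, a scaffold that binds NMDA receptor subunits in neurons. It lies on the plus strand of chromosome X (100767722 to 100818410, GRCm38). Its RefSeq promoter windows, 250 bases before to 50 after a transcript start, are shown because Dlg3 mRNA was near 0 in one genotype and well measured in the other. The upstream window is chrX:100774245-100774544 and the downstream one chrX:100777021-100777320, both on the plus strand of GRCm38.p6. Capitals mark the motifs CCAAT and GGGCGG, which read ATTGG and CCGCCC where they lie on the other strand.
Dlg3 upstream: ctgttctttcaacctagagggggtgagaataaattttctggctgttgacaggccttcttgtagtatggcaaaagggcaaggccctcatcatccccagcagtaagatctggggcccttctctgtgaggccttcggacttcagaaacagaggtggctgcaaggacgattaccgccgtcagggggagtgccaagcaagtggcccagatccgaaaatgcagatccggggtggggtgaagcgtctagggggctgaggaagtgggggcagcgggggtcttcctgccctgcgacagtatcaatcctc
Dlg3 downstream: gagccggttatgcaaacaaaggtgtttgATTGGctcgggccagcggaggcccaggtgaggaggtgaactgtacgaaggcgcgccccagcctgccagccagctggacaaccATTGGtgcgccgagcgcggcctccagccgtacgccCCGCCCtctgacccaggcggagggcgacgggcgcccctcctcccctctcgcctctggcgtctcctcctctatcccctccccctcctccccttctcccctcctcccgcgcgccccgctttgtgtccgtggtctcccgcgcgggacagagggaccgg
The downstream window held 28 CpG dinucleotides, more than 85.8% of 32851 mouse promoter windows, with 2 CCAAT motifs and 1 GGGCGG motif. The upstream window held 9 CpG dinucleotides (median of all windows 7) and neither motif. CCAAT occurred in 37.4% and GGGCGG in 35.7% of all windows, on either strand, and TATAAA (13.6%) and AGATAA (11.2%) were in neither Dlg3 window. Reads were counted per gene, so the start site used in these cells is not known from the values.

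The 3, 0 and 1 reads of Dlg3 in WT clones 28, 29 and 36 made 3.07, 0 and 1.0 normalized counts. R98S clones 11, 13 and 35 reached 189.5, 225 and 142. The direction was opposite to that of Cask, and again the groups did not overlap. WT clones averaged 1.36 ± 1.57 and R98S clones 186 ± 41.2 (SD, n = 3). The ratio was 137, with a counting interval from 53.4 to 502 given by the 4 reads in the WT group. The log2 fold change on the scale of normalized count + 1 was 6.51 (SE 0.53), with 7 of 11550 tested genes higher. Of the flanking tested genes, Kif4 differed by -0.16 (SE 0.13, adjusted p = 0.444 in limma) and Snx12 by -0.22 (SE 0.17, adjusted p = 0.415 in limma) on the log2 scale, and neither was called.

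**Figure D1:**
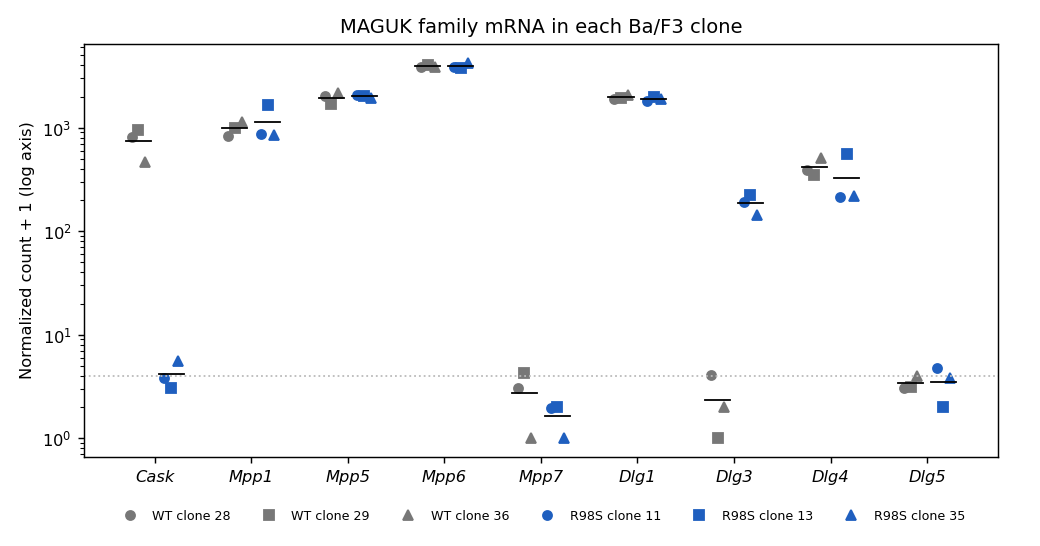
Normalized counts plus 1 (log axis) of the 9 MAGUK genes in each clone, with grey symbols for WT, blue for R98S, black lines for group means and a dotted line at 3 normalized counts plus 1. Cask lies at 462 to 944 in WT clones and at most 4.63 in R98S clones, Dlg3 does the reverse, and the groups overlap for the other genes.

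Dlg1, or SAP97, is the widely expressed member of the DLG group and acts with Scribble and Lgl proteins in cell polarity. Normalized counts were 1910, 1955 and 2048 for WT clones 28, 29 and 36, against 1792, 1993 and 1907 for R98S clones 11, 13 and 35. The ranges overlapped, and the log2 fold change was -0.06 with a 95% interval from -0.28 to 0.17. Dlg4, which encodes the postsynaptic scaffold PSD-95, stood at 390.2, 345 and 512 for the WT clones, against 212, 551 and 218 for R98S clones 11, 13 and 35. R98S clone 13 was the highest of all clones and the other R98S clones were the lowest, giving a log2 fold change of -0.48 with an interval from -1.30 to 0.35. Without R98S clone 13 it was -0.93 and passed the threshold of the fit over all genes. Leaving out this clone also raised the calls over all tested genes from 2755 to 3213. Clone 13 is the R98S clone that stood apart for Dlg4, so nothing is read from that call. Dlg5, a large DLG scaffold with a coiled coil, was near the floor in either genotype, its largest number of reads being 3 among WT and 4 among R98S clones. This gene was not tested.

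Among the MPP genes, Mpp6 was the most abundant, with normalized counts of 3870, 3990 and 3853 for WT against 3875, 3778 and 4240 for R98S clones. Its log2 fold change was 0.02, with a 95% interval from -0.20 to 0.24. Mpp5, also named Pals1, joins the Crumbs polarity protein to Patj. Its values were 2021, 1693 and 2151 for WT against 2050, 2033 and 1926 for R98S clones, with a log2 fold change of 0.04 and an interval from -0.23 to 0.31. The intervals for Dlg1, Mpp5 and Mpp6 thus held no difference beyond 0.31 on the log2 scale in either direction. Mpp1 encodes p55, a palmitoylated protein of the red cell membrane that binds protein 4.1 and glycophorin C. WT clones reached 836, 989.7 and 1146, while R98S clones 11, 13 and 35 reached 869, 1673 and 858. As for Dlg4, R98S clone 13 was the highest of all 6 clones. The log2 fold change of 0.13 (interval from -0.47 to 0.73) turned to -0.19 without that clone. Mpp1 shares 45 exon bases with Dkc1 on the opposite strand, and Dkc1, a pseudouridine synthase gene, rose by 0.73 (SE 0.14, adjusted p = 0.0148 in limma). Normalized counts of Dkc1 were 6041, 5472 and 5416 for WT clones 28, 29 and 36, against 11028, 7726 and 9612 for R98S clones 11, 13 and 35. R98S clone 13, highest in Mpp1, was thus the lowest R98S clone in Dkc1. Whether the reads were counted by strand is not stated, so a part of the Mpp1 reads could belong to Dkc1, which was not tested. Mpp7 had at most 3 reads in any clone and was not tested.

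In total 7 of the 9 genes passed the expression filter. Dlg3 did so only through its R98S level and Cask only through its WT level. The fit called 2 of these 7 genes at an adjusted p under 0.1, Dlg3 higher and Cask lower, where 23.9% of all tested genes were called, 10.7% higher and 13.1% lower. The groups did not overlap for the same 2 genes, against 37.3% of all tested genes. Nothing is read from these counts, since the same contrast chose the family. The median log2 fold change of the 7 genes was 0.02, and that of all tested genes was -0.01. Cask, Dlg3 and Mpp1 are on chromosome X, where 21.7% of 327 tested genes were called and the median log2 fold change was -0.10.

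Levels of different genes were compared as normalized counts per kilobase of exon, using the union of annotated exons, which understates genes with long exons that these cells do not use. In WT cells the order was Mpp6 at 624 ± 12.0, Mpp5 at 223 ± 26.9, Mpp1 at 185 ± 29.0 and Dlg1 at 184 ± 6.54 (SD, n = 3). Cask followed at 80.7 ± 27.2 and Dlg4 at 31.4 ± 6.54, while Dlg5, Dlg3 and Mpp7 were under 1 normalized count per kilobase in every WT clone. In R98S cells the first 4 places were taken by the same genes, at 634 ± 38.9, 228 ± 7.65, 212 ± 87.5 and 177 ± 9.40. Dlg3 then came before Dlg4, at 31.7 ± 7.05 and 24.7 ± 14.6, and Cask was at 0.35 ± 0.15. The median of 10999 tested genes with a known length was 183. The ranges over clones overlapped between Mpp5 and Mpp1 and between Mpp1 and Dlg1 in either genotype, and in R98S cells also between Dlg3 and Dlg4 and between Cask and Dlg5. Mpp6 lay above every other member in every clone, and its level per kilobase exceeded that of 83.02% of tested genes.

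**Figure D2:**
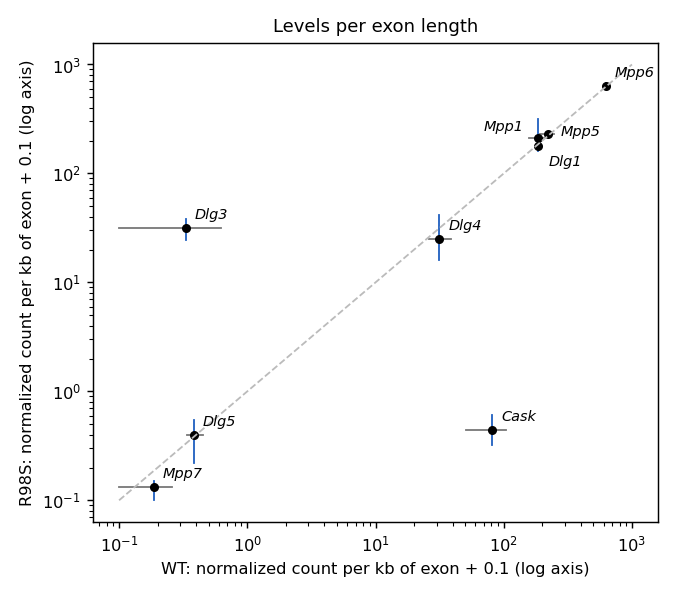
Levels per kilobase of exon (normalized counts, plus 0.1, log axes) in WT (horizontal) and R98S cells (vertical), with points at the means of 3 clones, lines from the lowest to the highest clone, and a dashed line of equal levels. Mpp6, Mpp5, Mpp1, Dlg1 and Dlg4 lie near the dashed line, and Cask (80.7 and 0.35) and Dlg3 (0.23 and 31.7) lie far off it on opposite sides.

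The spread between clones of the same genotype differed widely among the members. The pooled SD of log2 values within a genotype was 0.065 for Mpp6 and 0.065 for Dlg1. Of the tested genes within 2-fold of their abundance, 4.76% and 4.64% had a smaller spread. For Mpp5 it was 0.13, with 34.2% of like genes below. Cask (0.50), Mpp1 (0.42) and Dlg4 (0.59) varied more than 92.5%, 95.5% and 94.96% of the genes of like abundance. For Cask the SD was 0.54 among WT clones and 0.45 among R98S clones. The latter held only 2 to 5 reads, far under the mean over all clones by which like genes were chosen. For Dlg3 the pooled SD was 0.75, above 86.3% of like genes, with WT clones at 0 to 3 reads. For Mpp1 and Dlg4 the spread came mainly from R98S clone 13. This clone exceeded the mean of the other R98S clones by 1.35 for Dlg4 and 0.95 for Mpp1 on the log2 scale, and 243 and 497 of 11550 tested genes exceeded it by more.

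Dlg4 lies on the plus strand of chromosome 11 (70016942 to 70047522). Over all 947 tested genes of this chromosome the median of clone 13 was 0.30 above the other R98S clones, where the median of all tested genes was 0.00. Nlgn2, a neuroligin gene nearby (69823122 to 69837784) that was chosen after its values were seen, was also highest in clone 13 among R98S clones, with 1307 normalized counts against 646 for clone 11 and 471 for clone 35. Llgl1, on the same chromosome and not set for this comparison in advance, had 1182 against 711 and 640.2. Clone 13 exceeded the other R98S clones by 1.24 for Nlgn2 and 0.81 for Llgl1 on the log2 scale. Of 11550 tested genes, 273 and 709 exceeded them by more. Both genes thus lay well beyond the chromosome median of 0.30 and do not stand for it. For chromosome X, which holds Mpp1, the same median was -0.09. The 30 tested genes nearest to Dlg4 were higher in clone 13 by a median of 0.36, and those nearest to Mpp1 lower by 0.10. The part of the chromosome in the Dlg4 values was not tested beyond removal of the shift of its 30 neighbours, which moved its log2 fold change from -0.48 to -0.67.

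To place the members among the rest of the family, 17 other MAGUK or MAGUK-related genes were compared. Of these, 6 were tested and 2 were called, both lower in R98S cells, where 13.1% of all tested genes were called lower. The median log2 fold change of the 6 was -0.34. This list and the partner lists below were drawn up with earlier results of these data known. Their calls and adjusted p-values are therefore a description and no independent evidence. Cacnb2 encodes a beta subunit of voltage-gated calcium channels, whose core is a MAGUK-type SH3 and guanylate kinase module. WT clones held 414, 378 and 510.4 normalized counts of it, R98S clones 3.75, 2.04 and 5.55. The groups were far apart, as for Cask, at 434 ± 68.4 and 3.78 ± 1.76 (SD, n = 3). This made a log2 fold change of -6.57 (SE 0.34, adjusted p = 3.926e-05 in limma). Like Cask, Cacnb2 passed the expression filter only through its WT level. Close relatives of the members were too low to be tested, with at most 4 reads for Dlg2, 3 for Mpp2 and 6 for Mpp3 in any clone. Mpp4 was also under the filter, with 3, 2 and 7 reads in WT clones and 8 in each R98S clone.

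The listed binding partners showed calls in each list but that of L27 and Crumbs partners. Over all tested genes 10.7% were called higher and 13.1% lower. Of 6 tested genes for partners of Cask, 2 were called higher and 1 lower. Nrxn2, a neurexin gene, rose by 2.46 on the log2 scale (SE 0.33, adjusted p = 0.00392 in limma), with 14.4 ± 2.34 normalized counts for WT and 86.4 ± 29.4 for R98S clones (SD, n = 3). Caskin2, which encodes a protein that binds Cask, rose by 0.52 (SE 0.17, limma adjusted p = 0.0733). Of 14 tested genes for protein 4.1 and the membrane skeleton, 5 were called, all lower, and the median log2 fold change was -0.34. Ank3, which encodes ankyrin-G, fell by 4.95 (SE 0.29, adjusted p = 7.365e-05 in limma), with 343 ± 32.7 normalized counts for WT and 10.5 ± 3.98 for R98S clones. Add2, the beta-adducin gene, fell by 4.05 (SE 0.51, adjusted p = 0.00324 in limma), its means being 1614 ± 421 and 113 ± 67.0. Add1 fell by 0.71 (SE 0.11, limma adjusted p = 0.00732) and Epb4.1l1 by 0.64 (SE 0.22, limma adjusted p = 0.0852), and Add3 was also called lower. The 4.1R gene Epb4.1 and Gypc, the partners of Mpp1, differed by 0.04 (SE 0.12, adjusted p = 0.836 in limma) and -0.34 (SE 0.27, adjusted p = 0.428 in limma).

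Of 11 tested genes for partners of the DLG proteins, 2 were called, both lower. Homer1, which encodes a scaffold of the postsynaptic density, fell by 0.36 (SE 0.13, limma adjusted p = 0.0930). Of 7 tested polarity genes of the Par and Scribble groups, 2 were called lower. Llgl1 fell by 0.94 (SE 0.22, limma adjusted p = 0.0264) and Cdc42, a small GTPase gene, by 0.40 (SE 0.11, limma adjusted p = 0.0464). None of 3 tested genes for L27 and Crumbs partners (Lin7b, Lin7c and Amotl1) was called by limma, edgeR or DESeq2, and 0 had an unadjusted limma p under 0.05. Shares called were 33.3% for the other MAGUK genes, 50% for Cask partners, 35.7% for the membrane skeleton, 18.2% for DLG partners and 28.6% for polarity genes, beside 23.9% over all tested genes, and with so few genes per list nothing particular to a list is read from them. Of the 14 listed genes called in limma, 6 (Cacnb2, Nrxn2, Ank3, Add1, Add2 and Llgl1) were called under all alternatives. The other 8 lost the call without WT clone 28 (adjusted p from 0.133 to 0.279 in limma) and without WT clone 29 (0.103 to 0.217). Calls were also lost for 5 genes (WT clone 36 left out), 6 genes (R98S clone 11), 3 genes (R98S clone 13) and 4 genes (R98S clone 35), with adjusted p up to 0.219 in limma. Other processing choices removed calls as well. Of 16 alternatives at the threshold of 0.1, Homer1 was called in 5, Caskin2 and Epb4.1l1 in 8 each, Add3 in 10 and Cdc42 in 12. Homer1 and Epb4.1l1 were not called in edgeR.

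**Figure D3:**
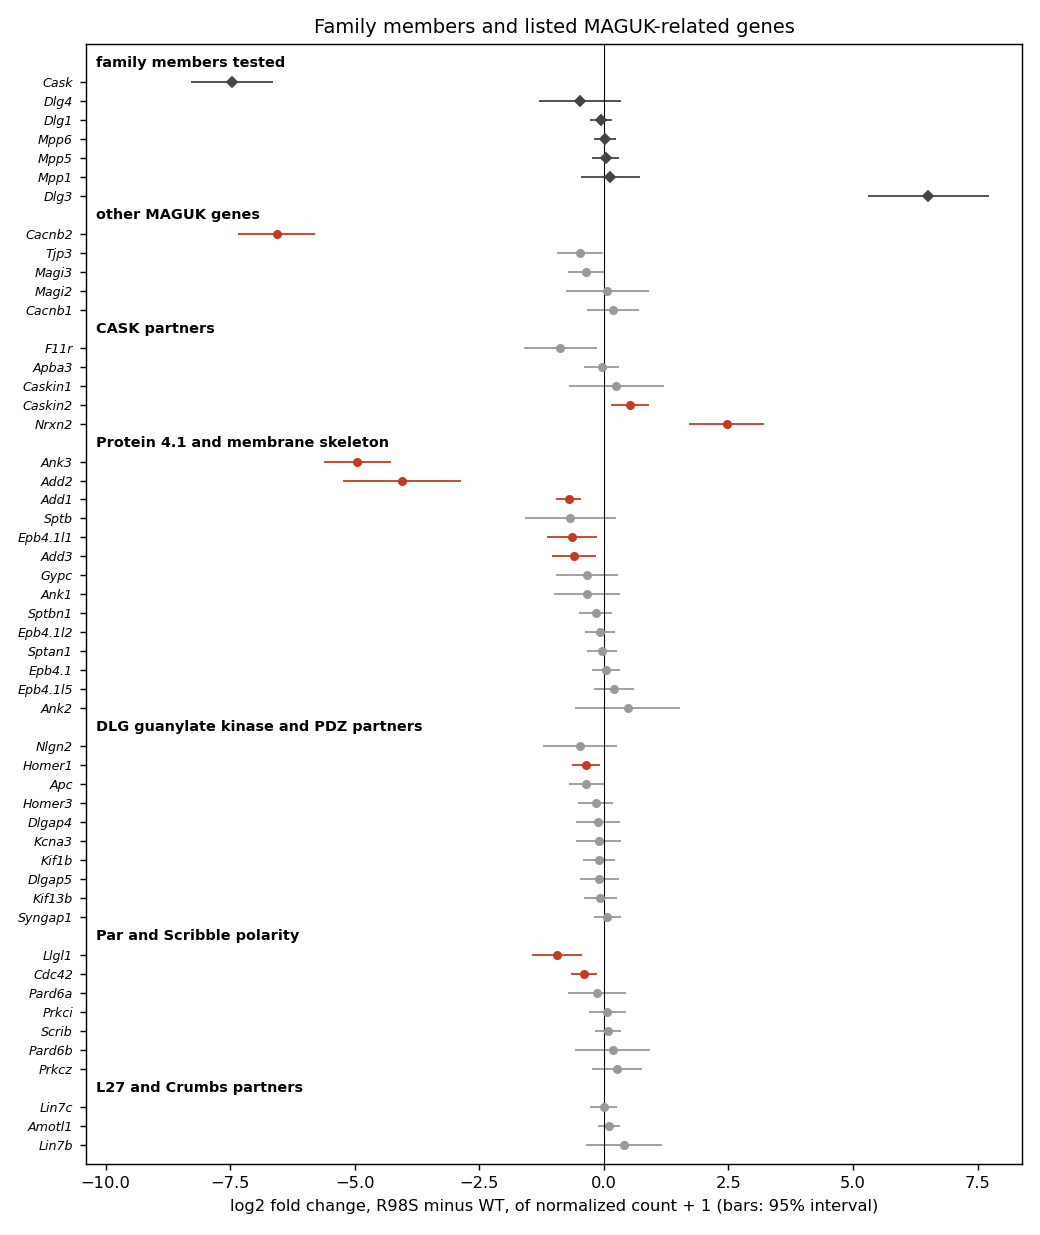
Log2 fold changes (R98S minus WT, of normalized count + 1) of the tested family members (diamonds) and of MAGUK-related and partner genes (circles, red where called in limma), with bars for the 95% interval. Cask (-7.46), Cacnb2 (-6.57), Ank3 (-4.95) and Add2 (-4.05) lie far to the left, Dlg3 (6.51) and Nrxn2 (2.46) to the right, and most other genes lie within 1 of 0.

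Among genes with a mean of at least 100 normalized counts, the profiles most like those of Cask and Dlg3 were found by the Euclidean distance of mean-centred log2 values over the 6 clones. For Cask they included Rnf217 (distance 0.9991), Ttc39c (1.37), Cacnb2 (1.55) and Spp1 (1.73), out of 9503 genes. Rnf217, a ubiquitin ligase gene, held 591, 458 and 525 normalized counts for WT against 1.88, 2.04 and 4.63 for R98S clones. For Dlg3 they were Lrtm2 (1.25), Gm973 (1.72), Cytip (1.87), Ptprcap (1.88) and Gm10040 (1.97), out of 9504. Lrtm2, which encodes a leucine-rich repeat membrane protein, went the other way, with 4.096, 2.15 and 2.002 for WT against 236, 235 and 194 for R98S clones. The distances are small beside the range of Cask (8.28) and Dlg3 (7.82) over the clones, and these profiles share a large step between the genotypes in the same 6 libraries. None of these genes is on chromosome X.

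**Figure D4:**
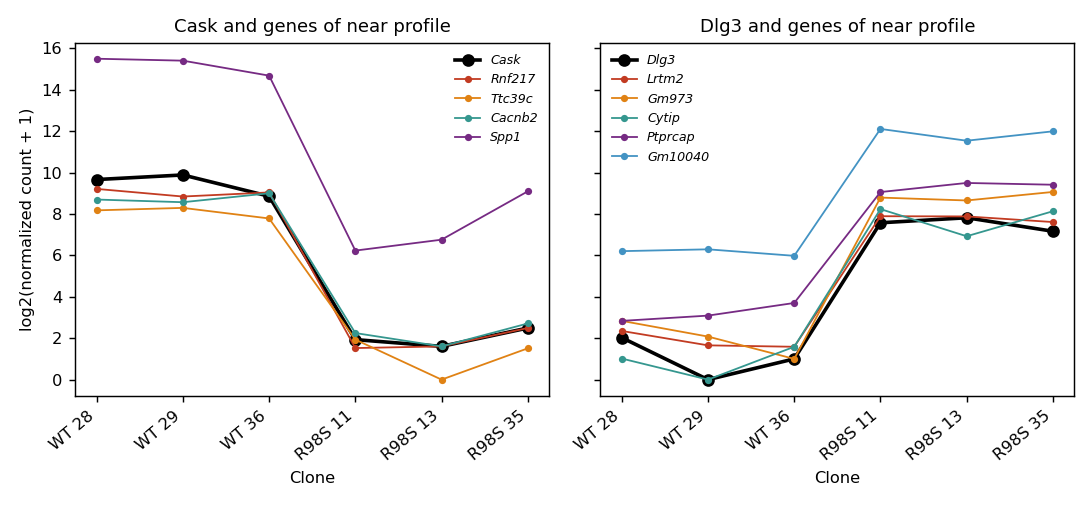
Log2(normalized count + 1) in each clone for Cask (left) and Dlg3 (right), in black, and for genes with the nearest profiles (4 for Cask, 5 for Dlg3), in colour. All lines for Cask drop from the WT to the R98S clones and all lines for Dlg3 climb, with Spp1 and Gm10040 at higher levels than the rest.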

How the data were processed

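Per the labels and the study's methods, cells were exposed to cycloheximide, and polyadenylated RNA was made into stranded libraries. The authors removed rRNA and tRNA reads with Bowtie2, aligned the rest to mm10 with TopHat, kept primary alignments with a mapping quality of at least 10 and counted reads on exons. The annotation and the strand setting are not given in the sources used here. The deposited value of a gene is a signal, its read count over a DESeq2 size factor. In each library 100% of values above 0 were whole multiples of 1 step (tolerance 0.01), which gave back the reads. The step of WT clone 36 was close to 1.

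The genotypes were compared in limma (3.58.1, in R 4.3.3) by a two-sided test of log2(normalized count + 1) that allowed an intensity trend, for genes with a mean of at least 10, with Benjamini-Hochberg adjustment over all genes and a threshold of 0.1. Fold changes on this scale are smaller than the ratio of means for low genes. The fit was tested on simulated data with changes far smaller than those of Cask and Dlg3. That test therefore does not cover genes nearly absent from a genotype. Alternatives were edgeR (4.0.16) and DESeq2 (1.42.0) on recovered reads, pseudocounts of 0.5 and 5, other filters and scalings, no trend, a threshold of 0.05, each clone left out, and removal of the median shift of 30 neighbouring genes. Positions came from GENCODE M21, where 36776 of 41255 symbols matched. Promoters came from RefSeq (GRCm38.p6), and windows of 6 of 9 members were used. Windows on chromosome 18, which holds Mpp7, were left out. Intervals on reads cover counting error only. Clones were the replicates.

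The members and lists were chosen with earlier results of these data known. Named genes are the members, the called genes of each list (at most 4 by size), Dlg2, Mpp2, Mpp3 and Mpp4, neighbours of members and the 5 nearest profiles of Cask and Dlg3. Marker genes, Add3, Epb4.1, Gypc and Gpr82 were named as well. Any other gene was chosen after its values were seen. Some genes that these rules name are not reported here, though the counts of each list include them.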

Additional observations from a re-analysis of the deposited data

How the results depend on the processing

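No paired analysis was possible because no clone number occurs in both genotypes. Cask and Dlg3 kept direction and call under every alternative. Log2 fold changes ran from -7.84 to -6.46 for Cask and from 4.91 to 7.09 for Dlg3, whose value depends most on the pseudocount. The same contrast in the same libraries chose these genes, so nothing is read from the kept calls. Of 112 values of single members under alternatives, 106 kept direction and call, 1 gained a call (Dlg4 without R98S clone 13, -0.93) and 5 reversed, none of them called. The reversals were Mpp5 at -0.058 without WT clone 29 and -0.00014 with the regional shift removed, Mpp1 at -0.19 without R98S clone 13, Mpp6 at -0.029 without R98S clone 35, and Dlg1 at 0.12 with the regional shift removed. With 1 clone left out Mpp1 ranged from -0.19 to 0.295, Mpp5 from -0.058 to 0.114 and Mpp6 from -0.029 to 0.054. The cause was not tested.

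A threshold of 0.05 left 1722 genes in all, 776 higher and 946 lower, and 8 of the listed genes, as the threshold is stricter. With 1 clone left out, counts ranged from 1322 (WT clone 28 left out) to 3213 in all, 585 to 1436 higher, 737 to 1777 lower, 2 to 3 for the members and 6 to 14 for the listed genes, which number 14 with all clones. Upper quartile scaling gave 1453 higher and 1335 lower, against 1241 and 1514 with the deposited size factors. Dlg5, Mpp7, Dlg2, Mpp2, Mpp3 and Mpp4 had means under 10 and were not tested.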
